A study of Rattus norvegicus with 16 samples.

Results

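The genes described here are 10 transcripts of the macrophage lineage, *Lyz2*, *Ptprc*, *Mrc1*, *Cybb*, *Laptm5*, *Tyrobp*, *Msr1*, *Cyth4*, *Adgre1* and *Cd68*, followed in cultured rat mesenchymal stromal cells (MSCs) that received medium in which macrophages had grown. They are 10 of the 26689 genes in the deposited count table and were taken by name. They were chosen by their read counts in these same libraries, already known to differ between media, so their levels and fold changes are given as a description, with no test.

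MSCs are fibroblast-like cells that adhere to plastic. They came from the bone marrow of 4 adult female wild-type Sprague-Dawley rats (rats 2, 3, 4 and 8), were sorted as CD29-positive and CD45-negative cells at an early passage, grown on, and then kept for 24 h in one of 4 media before RNA was taken. M1CM was the supernatant of inflammatory primary macrophages, which had been polarized with bacterial lipopolysaccharide (LPS) and interferon gamma (IFNγ). The study's methods give it as the polarizing medium itself, collected after 24 h with no change of medium described, so M1CM could still hold LPS and IFNγ. M0CM was the supernatant of unpolarized primary macrophages, Pol1 was the polarizing mixture with no macrophage in it, and D10 was DMEM with serum and gentamycin. Each rat gave 1 library in every medium, so there were 16 libraries and n = 4 per medium, and all cells were MSCs that carried no genetic change. The labels describe Pol1 as D10 with 100 ng/ml LPS and 20 ng/ml IFNγ, whereas the study's methods describe an RPMI medium with the macrophage growth factor M-CSF and another dose of IFNγ. The macrophages were grown from sorted bone marrow monocytes in RPMI, so both macrophage media differed from D10 in the base medium as well. Both were spun to remove debris, stored frozen and thawed before use, and the MSCs were rinsed with D10 before the media were applied. The macrophage cultures themselves are not among the libraries analysed here, and the source of the reads described below was not tested.

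Macrophages are phagocytes that take up particles through scavenger and lectin receptors, digest them in lysosomes and kill microbes with lysozyme and with superoxide made by a membrane oxidase. Much of this program, in mouse and human, is switched on by the ETS-family factor PU.1, the product of *Spi1*, which binds purine-rich sites close to the start of myeloid genes that often lack a TATA box. LPS with IFNγ turns macrophages toward a classically activated state, in which the mannose receptor gene *Mrc1* is known to be low.

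Promoter sequences are shown for *Lyz2*, *Mrc1*, *Cybb* and *Cd68*, the genes whose counts separated the 2 macrophage media most clearly or varied most between rats. Each is the 250 bases before the annotated start, 5′ to 3′ on the strand of the gene, from RefSeq on build GRCr8, and the capitals mark the letters GAGGAA or, on the other strand, TTCCTC, the core of a PU-box. The windows are chr7:54798012-54798261 (minus strand) for *Lyz2*, chr17:82157475-82157724 (plus strand) for *Mrc1*, chrX:16065066-16065315 (minus strand) for *Cybb* and chr10:54882442-54882691 (minus strand) for *Cd68*.

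Lyz2: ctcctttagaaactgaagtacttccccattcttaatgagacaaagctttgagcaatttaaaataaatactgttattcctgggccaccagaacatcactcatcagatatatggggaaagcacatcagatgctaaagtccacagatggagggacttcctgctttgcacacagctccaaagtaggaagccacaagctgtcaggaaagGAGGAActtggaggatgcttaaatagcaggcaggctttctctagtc

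Mrc1: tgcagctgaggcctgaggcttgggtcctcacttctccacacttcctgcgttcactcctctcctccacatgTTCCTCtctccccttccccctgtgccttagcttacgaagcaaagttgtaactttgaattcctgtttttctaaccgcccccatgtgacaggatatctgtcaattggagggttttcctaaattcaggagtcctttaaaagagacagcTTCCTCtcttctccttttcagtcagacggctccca

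Cybb: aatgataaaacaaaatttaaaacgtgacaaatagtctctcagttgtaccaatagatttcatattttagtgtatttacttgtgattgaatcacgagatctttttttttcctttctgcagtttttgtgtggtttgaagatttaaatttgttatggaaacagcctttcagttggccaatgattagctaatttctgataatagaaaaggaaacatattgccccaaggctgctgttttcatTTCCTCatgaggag

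Cd68: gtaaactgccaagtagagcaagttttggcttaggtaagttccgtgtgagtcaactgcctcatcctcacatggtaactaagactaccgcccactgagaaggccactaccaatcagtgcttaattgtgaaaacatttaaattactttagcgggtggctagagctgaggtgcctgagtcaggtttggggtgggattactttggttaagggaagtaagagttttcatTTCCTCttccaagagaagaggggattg

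RefSeq promoters matched 8 of the 10 genes, and all 8 windows held GAGGAA on either strand, against 23.3% of the 33469 RefSeq rat promoters cut to the same 250 bases. The longer letters AGGAAGT, which overlap GAGGAA in part and were likewise searched on both strands, stood in 4 of the 8 windows (*Lyz2*, *Ptprc*, *Mrc1* and *Cyth4*) and in 7.08% of all promoters. The letters TTCNNNGAA, the core of the element bound by STAT factors after IFNγ, stood only in the *Cyth4* window of the 8 and in 7.67% of all promoters. The letters GAGGAA began 46 bases before the start in *Lyz2*, 27 in *Cd68*, 14 in *Cybb* and both 180 and 35 in *Mrc1*. The motifs were chosen after the promoter sequences had been read, and a match is only a run of letters, not a site shown to be bound.

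The 10 genes together made up a very small share of each library. Their counts summed to 7.59 ± 2.93 counts per 1e6 counts (CPM, scaled for library composition) in M1CM, 9.45 ± 1.48 CPM in M0CM, 0.82 ± 0.393 CPM in Pol1 and 0.758 ± 0.403 CPM in D10 (mean ± SD, n = 4 each). The ranges were 4.25 to 11.4 CPM in M1CM and 8.2 to 11.4 CPM in M0CM, against 0.462 to 1.34 CPM in Pol1 and 0.47 to 1.34 CPM in D10. Both macrophage media therefore lay above both media without macrophages in every library, while the ranges of M1CM and M0CM overlapped, as did those of Pol1 and D10. In raw reads, the sums over 4 libraries were 772 counts in M1CM, 982 in M0CM, 88 in Pol1 and 82 in D10, out of 23291125 to 31992709 counts per library. All 10 genes had at least 1 count in each M0CM library, whereas 6 to 8 had a count in an M1CM library, 4 to 5 in a Pol1 library and 4 to 6 in a D10 library. In RNA from whole cultures, fewer cells of a type and less RNA per cell cannot be told apart.

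**Figure D1:**
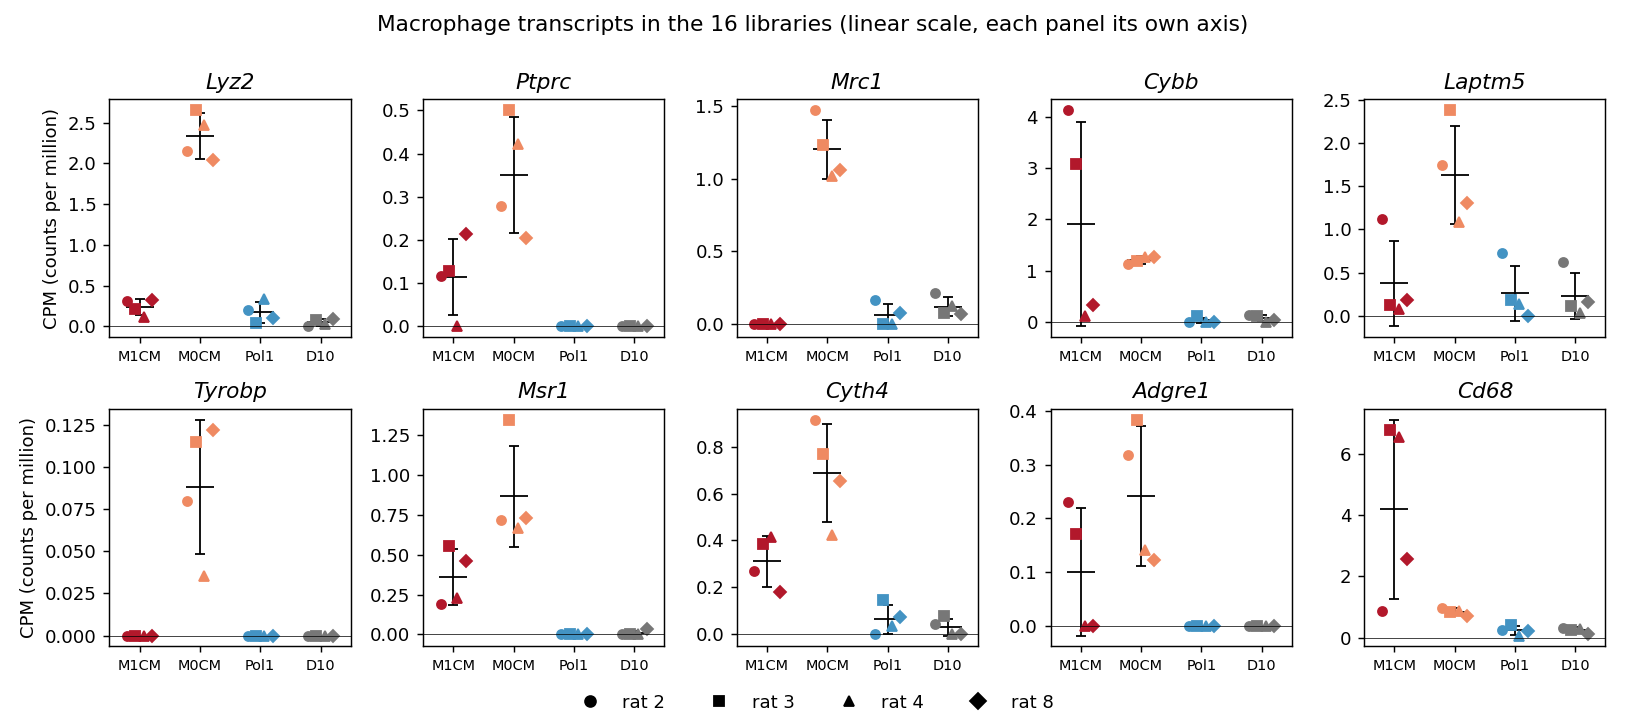
Level of each of the 10 genes in CPM (y axis, linear, starting near 0 and set for each gene) in the libraries of M1CM, M0CM, Pol1 and D10 (x axis), with 1 symbol per rat, and the mean and SD of 4 libraries as a bar with whiskers. All 4 M0CM libraries stand above every Pol1 and D10 library in each panel, *Mrc1* and *Tyrobp* are at 0 in M1CM, and *Cybb* and *Cd68* spread widely between rats in M1CM.

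All 4 M0CM libraries lay above every Pol1 and every D10 library for 10 of the 10 genes, a pattern that 0.384% of the 13556 genes with enough counts showed. All 4 M1CM libraries lay above them for 3 of the 10 (*Msr1*, *Cyth4* and *Cd68*), against 9.91% of those genes. The M0CM libraries lay above all 12 others for 5 of the 10, against 0.17% of those genes. Between the macrophage media, every M0CM library lay above every M1CM library for 5 of the 10 (*Lyz2*, *Mrc1*, *Tyrobp*, *Msr1* and *Cyth4*; 16.8% of those genes), and the reverse held for 0 of the 10 (19.1% of those genes). The choice of the genes used these same contrasts. Of the 10, only 7 reached the minimum of 10 counts in at least 4 libraries, since *Ptprc*, *Tyrobp* and *Adgre1* were too low, so those 3 have counts but no fitted fold change.

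Among the surface receptors, *Mrc1* (mannose receptor CD206, a lectin that takes up glycoproteins; Rnor 6.0 chromosome 17, 83099574 to 83180475) separated the macrophage media most sharply. It had 0 counts in all 4 M1CM libraries, 37, 32, 29 and 26 counts in M0CM, 4, 0, 0 and 2 in Pol1 and 5, 2, 4 and 2 in D10 (rats 2, 3, 4 and 8 in this order, as in all lists below). M0CM was the only high medium, and M1CM lay below D10 in all 4 rats. The level was 1.20 ± 0.206 CPM in M0CM, against 0.0583 ± 0.0769 CPM in Pol1 and 0.118 ± 0.0662 CPM in D10. From counts pooled over 4 libraries, M0CM was 10.5-fold higher than D10 (95% counting interval 5.90 to 20.2) and 21.9-fold higher than Pol1 (9.76 to 60.7). With a floor of 3 counts over the 4 libraries, M1CM was at least 41.2-fold lower than M0CM and at least 3.94-fold lower than D10. Such intervals and floors cover counting error only. They take reads as independent and leave out the spread between rats.

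*Msr1* (scavenger receptor A, which takes up modified lipoproteins; chromosome 16, 56517029 to 56597077) was read in both macrophage media and almost nowhere else. It had 5, 13, 6 and 13 counts in M1CM, 18, 35, 19 and 18 in M0CM, 0 in every Pol1 library and 0, 0, 0 and 1 in D10. The 3 levels did not overlap: 0.669 to 1.35 CPM in M0CM lay above 0.193 to 0.557 CPM in M1CM, which lay above every library without macrophage medium. M1CM was 0.412 times M0CM (counting interval 0.273 to 0.611). Against the single D10 count the pooled ratios were 40.7 for M1CM (6.86 to 1650) and 98.7 for M0CM (17.3 to 3940), intervals so wide that the size is hardly set. *Adgre1* (the adhesion receptor F4/80, a surface marker of mouse macrophages; chromosome 9, 8434335 to 8593090) had 6, 4, 0 and 0 counts in M1CM and 8, 10, 4 and 3 in M0CM, and 0 in all 8 libraries of Pol1 and D10. M0CM was at least 9.14-fold higher than D10 and M1CM at least 3.66-fold higher, and the M1CM and M0CM ranges overlapped although M1CM was the lower of the pair in all 4 rats.

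For the signalling proteins, *Ptprc* (CD45, the receptor phosphatase carried by all nucleated blood cells; chromosome 13, 60094039 to 60205338) had 3, 3, 0 and 6 counts in M1CM and 7, 13, 12 and 5 in M0CM, and 0 in every Pol1 and D10 library. CD45 is the antigen against which the MSCs had been sorted before they were conditioned. The levels were 0.115 ± 0.088 CPM in M1CM and 0.351 ± 0.134 CPM in M0CM, with overlapping ranges, and a count of 0 allows up to 0.0263 CPM in D10 and 0.0273 CPM in Pol1. M1CM was at least 4.40-fold and M0CM at least 13.5-fold higher than D10. *Tyrobp* (DAP12, the adaptor that passes signals from TREM and related receptors to the kinase SYK; chromosome 1, 90031117 to 90034967) had 0 counts in M1CM, Pol1 and D10 and 2, 3, 1 and 3 counts in M0CM. These 9 reads are the whole of the *Tyrobp* signal, and M0CM was at least 3.29-fold higher than D10 and M1CM at least 2.99-fold lower than M0CM. *Cyth4* (cytohesin 4, an exchange factor for ARF GTPases; chromosome 7, 119809478 to 119833941) had 7, 9, 11 and 5 counts in M1CM, 23, 20, 12 and 16 in M0CM, 0, 4, 1 and 2 in Pol1 and 1, 2, 0 and 0 in D10. Here too all M0CM libraries were above all M1CM libraries, though narrowly (0.423 CPM at the lowest in M0CM, 0.416 CPM at the highest in M1CM), and M1CM was above Pol1 and D10 in every library. M1CM was 4.85-fold higher than Pol1 (2.10 to 13) and 0.452 times M0CM (0.288 to 0.695).

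*Lyz2* (lysozyme, which cuts bacterial cell walls and is secreted by macrophages and other myeloid cells; chromosome 7, 60337951 to 60343246) was the most abundant of the 10 in M0CM. It had 8, 5, 3 and 9 counts in M1CM, 54, 69, 70 and 50 in M0CM, 5, 1, 10 and 3 in Pol1 and 0, 2, 1 and 3 in D10. M0CM stood far above the other 3 media, M1CM overlapped Pol1, and M1CM lay just above D10 in all 4 rats. The levels were 0.239 ± 0.0967 CPM in M1CM, 2.33 ± 0.282 CPM in M0CM, 0.172 ± 0.132 CPM in Pol1 and 0.0504 ± 0.0429 CPM in D10. M0CM was 44.4-fold higher than D10 (counting interval 20.1 to 122) and 13.5-fold higher than Pol1 (8.48 to 22.9), and M1CM was 0.103 times M0CM (0.0654 to 0.156). The fitted log2 fold changes against D10 were 2.11 (standard error 0.66) for M1CM and 5.36 (standard error 0.62) for M0CM. Lysozyme genes have close relatives, and how reads that match several of them were counted was not given in the sources used here.

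*Cybb* (gp91phox, the catalytic chain of the phagocyte NADPH oxidase; chromosome X, 15359336 to 15392482) behaved differently in the 2 macrophage media. It had 107, 72, 3 and 9 counts in M1CM, 28, 31, 36 and 31 in M0CM, 0, 3, 0 and 0 in Pol1 and 3, 3, 0 and 1 in D10. In M1CM, rats 2 and 3 were above every M0CM library and rats 4 and 8 below every one, and the M1CM range of 0.113 to 4.13 CPM reached down into that of D10. In M0CM the 4 rats were within 1.12 to 1.27 CPM, and none overlapped Pol1 or D10. The pooled folds against D10 were 30.0 (14.3 to 75.6) for M1CM and 19.7 (9.30 to 50.1) for M0CM, and the fitted log2 fold changes 4.81 (standard error 1.10) and 4.16 (standard error 1.09). The pooled M1CM value rests on rats 2 and 3, which gave 107 and 72 of its 191 counts.

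Of the lysosomal proteins, *Cd68* (macrosialin, a heavily glycosylated protein of the lysosomal membrane; chromosome 10, 56014365 to 56016243) was the only one of the 10 with its highest mean in M1CM beside *Cybb*. It had 23, 158, 173 and 72 counts in M1CM, 24, 22, 25 and 17 in M0CM, 6, 12, 2 and 6 in Pol1 and 8, 7, 9 and 4 in D10. In M1CM, rats 3, 4 and 8 stood well above M0CM while rat 2 was level with it. The levels were 4.19 ± 2.93 CPM in M1CM, 0.844 ± 0.111 CPM in M0CM, 0.239 ± 0.149 CPM in Pol1 and 0.251 ± 0.0884 CPM in D10. Pooled over libraries, M1CM was 16.7-fold (11.4 to 25.5) and M0CM 3.45-fold (2.23 to 5.48) higher than D10, with fitted log2 fold changes of 4.05 (standard error 0.61) and 1.74 (standard error 0.59). Pol1, which held LPS and IFNγ but no macrophage product, was 0.963 times D10 (0.542 to 1.70). Apart from rat 3, the rats high for *Cd68* were not those high for *Cybb*: rat 4 had the second-highest *Cd68* level and the lowest *Cybb* level of the M1CM libraries, and rat 2 the lowest *Cd68* and the highest *Cybb*. *Laptm5* (a lysosomal membrane protein of blood cells; chromosome 5, 152749594 to 152771632) had 29, 3, 2 and 5 counts in M1CM, 44, 62, 31 and 32 in M0CM, 18, 5, 4 and 0 in Pol1 and 15, 3, 1 and 5 in D10. Rat 2 was the highest rat in M1CM, Pol1 and D10 alike, with 1.12, 0.729 and 0.627 CPM, and it alone brought M1CM into the range of M0CM. M0CM was 7.72-fold higher than D10 (5.02 to 12.4), and M1CM was 1.79-fold higher than D10 (1.05 to 3.10) and 0.231 times M0CM (0.159 to 0.329).

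Set per kilobase of the deposited gene length, so that genes can be compared, the order in M0CM was *Lyz2* with 1.96 ± 0.237 CPM per kb, *Laptm5* with 0.789 ± 0.276, *Cd68* with 0.704 ± 0.0922, *Msr1* with 0.606 ± 0.224, *Cybb* with 0.411 ± 0.0244, *Cyth4* with 0.260 ± 0.0786, *Mrc1* with 0.235 ± 0.0405, *Tyrobp* with 0.168 ± 0.0761, *Adgre1* with 0.0748 ± 0.0403 and *Ptprc* with 0.0696 ± 0.0266. *Lyz2* was apart from the next gene by more than their SDs, while *Laptm5*, *Cd68* and *Msr1* lay within one another's spread, as did *Cyth4*, *Mrc1* and *Tyrobp*, and *Adgre1* and *Ptprc*. In M1CM the order began with *Cd68* at 3.49 ± 2.44 CPM per kb and *Cybb* at 0.649 ± 0.680, and the SD of *Cybb* was as large as its mean. *Msr1* with 0.252 ± 0.124, *Lyz2* with 0.201 ± 0.0812, *Laptm5* with 0.181 ± 0.240 and *Cyth4* with 0.118 ± 0.0411 CPM per kb followed in M1CM with overlapping spreads.

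The make-up of the summed signal was alike in the 4 M0CM libraries and different from rat to rat in M1CM. In M0CM, *Lyz2* took 22.0% to 29.3% of the counts of the 10 genes, *Mrc1* 10.8% to 15.1%, *Cybb* 10.4% to 15.4% and *Cd68* 7.41% to 10.5%. In M1CM, *Cybb* took 1.52% to 56.9% and *Cd68* 12.2% to 87.4%, and *Lyz2* at most 7.56%. Pooled over the 4 libraries, *Cd68* and *Cybb* were 55.2% and 24.7% of the M1CM counts, against 8.96% and 12.8% of the M0CM counts.

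**Figure D2:**
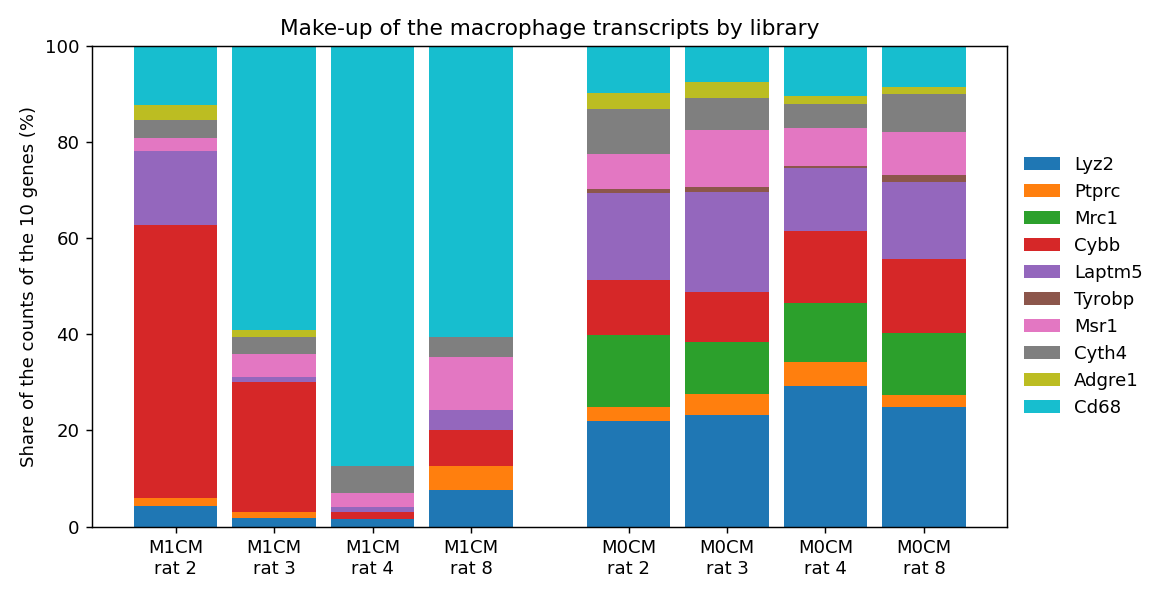
Share of the counts of the 10 genes taken by each gene (y axis, percent, stacked to 100) in the 4 M1CM and the 4 M0CM libraries (x axis, 1 bar per rat). *Cybb* takes 56.9% of the M1CM bar of rat 2 and *Cd68* 87.4% of that of rat 4, while the 4 M0CM bars look alike, with *Lyz2* at 22.0% to 29.3%.

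The SD over rats was set against the SD that counting alone would give at these depths. In M0CM the ratio was 0.333 for *Cybb*, 0.613 for *Cd68*, 0.692 for *Tyrobp*, 0.939 for *Lyz2* and 0.963 for *Mrc1*, and it was 1.15 to 2.28 for the other 5 genes with *Laptm5* the highest. In M1CM it was 7.52 for *Cybb*, 7.35 for *Cd68* and 4.13 for *Laptm5*, where the spread between rats was several times the counting error, and 1.0 to 1.95 for the other 5 genes with counts. With 4 rats such a ratio is imprecise, and one near or below 1 does not show that the rats were alike.

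**Figure D3:**
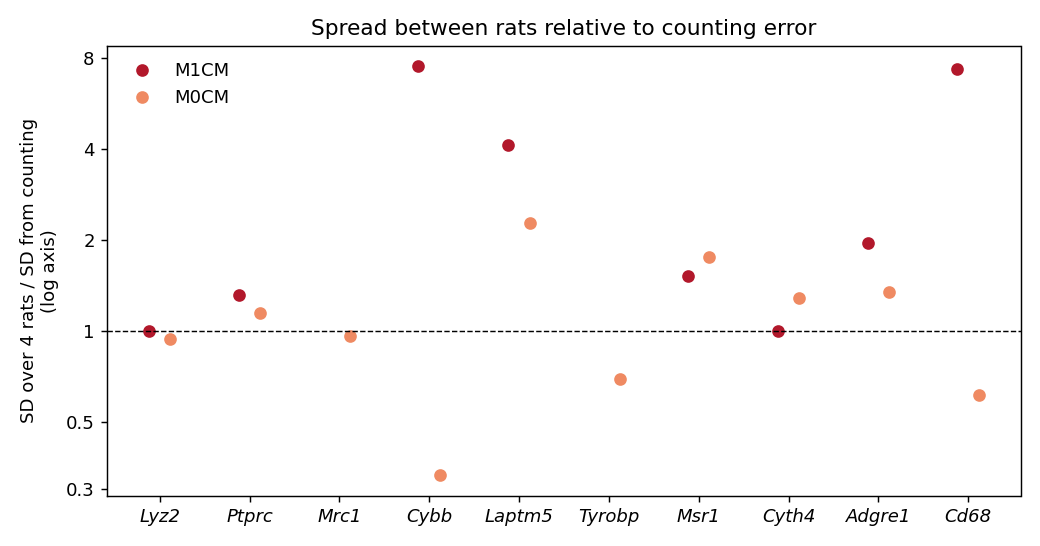
SD over the 4 rats divided by the SD expected from counting alone (y axis, log scale, dashed line at 1) for each gene (x axis) in M1CM and M0CM. The M1CM points of *Cybb* and *Cd68* are at 7.52 and 7.35, and their M0CM points at 0.333 and 0.613. *Mrc1* and *Tyrobp* have no M1CM point because they had 0 counts.

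Other genes of the macrophage lineage were examined with edgeR's quasi-likelihood test over the 13556 genes with enough counts (Benjamini-Hochberg adjustment, called at an adjusted p below 0.05). Of 36 further macrophage genes in the table, 14 had enough counts. High counts in M1CM alone can meet that minimum, so the calls and medians of the 14 are not those of all 36. Between M1CM and D10, 10 of the 14 rose and 1 fell, where 44.4% of all genes were called in either direction, with a median log2 fold change of 3.94 over the 14 and -0.01 over all genes tested. Those of smallest p were *Ctss* (cathepsin S, a lysosomal protease), *Slc11a1* (NRAMP1, a metal transporter of the phagosome), *Mmp12* (macrophage elastase), *Ncf1* (the p47phox subunit of the NADPH oxidase) and *Clec10a* (a galactose-binding lectin). *Mmp12* had 284, 1181, 1479 and 476 counts in M1CM, 22, 32, 34 and 19 in M0CM, 2, 0, 0 and 2 in Pol1 and 0, 0, 1 and 0 in D10. Its M1CM level of 33.6 ± 22.9 CPM varied between rats, with the lowest value in rat 2, as for *Cd68*.

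Between Pol1 and D10, with no macrophage product in either medium, 6 of the same 14 genes rose and 0 fell (18.6% of all genes called in either direction), and those of smallest p were *Ctss*, *Slc11a1*, *Clec10a*, *Ncf1* and *Ms4a7* (a membrane protein of macrophages). *Ctss* averaged 16.2 ± 6.09 CPM in M1CM, 0.527 ± 0.254 CPM in M0CM, 8.46 ± 2.89 CPM in Pol1 and 0.0329 ± 0.0444 CPM in D10, so that Pol1 was above M0CM. For the 10 chosen genes the highest Pol1 library lay below the lowest M0CM library. They were chosen on counts in these same libraries, so their order cannot be set against that of *Ctss*. *Slc11a1* had log2 fold changes of 4.94 (standard error 0.36, adjusted p = 5.13e-08) in M1CM and 4.53 (standard error 0.35, adjusted p = 2.57e-07) in Pol1 against D10 by edgeR.

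Between M0CM and D10, 2 of the 14 rose and 0 fell (0.14% of all genes called in either direction). *Mmp12* had a log2 fold change of 6.26 (standard error 0.97, edgeR adjusted p = 0.0182) and *Ctss* of 3.75 (standard error 0.66, edgeR adjusted p = 0.0342), each higher in 4 of 4 rats. Leaving out any of rats 2, 3, 4 or 8 left 0 of the genes called in M0CM. Over all genes, these 4 fits called 8, 7, 0 and 0 in that order, in place of 19. With a term for the rat, as with DESeq2, *Csf1r* was called as well. *Csf1r* (the M-CSF receptor, on which macrophages depend) had 14, 27, 22 and 23 counts in M1CM, 41, 50, 35 and 52 in M0CM, 15, 25, 18 and 11 in Pol1 and 14, 17, 5 and 4 in D10, so M0CM stood above every other library. Its log2 fold change in M0CM against D10 was 2.21 (standard error 0.47, edgeR adjusted p = 0.142), which did not pass the edgeR test without a term for the rat.

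Between M1CM and Pol1, which sets the medium of polarized macrophages against the polarizing mixture, 6 of the 14 rose and 1 fell (25.1% of all genes called in either direction). *Mmp12*, *Ncf1*, *Lilrb4* (an inhibitory receptor) and *Ccr1* (a chemokine receptor) rose, and *Alox5ap* (the helper protein of leukotriene synthesis) fell, these being the 5 of smallest p. The count of 7 dropped to 4 when rat 2, rat 3 or rat 8 was left out and to 2 when rat 4 was. Calls over all genes fell as well, from 3404 to 2739, 2672, 1677 and 2041 without rats 2, 3, 4 and 8. Between M1CM and M0CM, 9 of the 14 rose and 0 fell (40.3% of all genes called in either direction), led by *Slc11a1*, *Ctss*, *Mmp12*, *Ncf1* and *Clec10a*. With a term for the rat, as with DESeq2, 9 rose and 2 fell (*Csf1r* and *Alox5ap*). The 14 had to pass the count minimum, which high counts in M1CM alone can meet. Over all 36 genes, every M1CM library lay above every M0CM library for 8, against 19.1% of the 13556 genes with enough counts. Every M1CM library lay below every M0CM library for 7 (*Csf1r*, *Fcgr1a*, *Fcgr2b*, *Clec7a*, *Trem2*, *Folr2* and *Ncf4*), against 16.8% of those genes. Only 14 of the 36 met the count minimum behind those shares, so counts and shares are not like for like. All 8 of the genes higher in M1CM were among the 14, whereas of the 7 lower ones only *Csf1r* was.

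Several of the 36 further macrophage genes were at or near 0. *Cd163*, *Marco*, *Clec4d* and *Vsig4* had 0 counts in all 16 libraries, and the complement gene *C1qa* had 1 count in M1CM, 1 in M0CM and 0 in Pol1 and D10. *Cd14* (the LPS co-receptor) was read in every library, at 16.9 ± 11.3 CPM in M1CM, 7.81 ± 1.20 CPM in M0CM, 7.90 ± 1.78 CPM in Pol1 and 4.69 ± 1.09 CPM in D10, and *Fcer1g* (an Fc receptor chain) had 25, 33, 18 and 24 counts over the 4 libraries of M1CM, M0CM, Pol1 and D10. The 36 genes summed to 76.3 to 181 CPM in M1CM, 19.9 to 25.1 CPM in M0CM, 30.3 to 47.5 CPM in Pol1 and 9.62 to 14.8 CPM in D10. Of the 36, 26 had a count in M1CM, 32 in M0CM, 25 in Pol1 and 21 in D10.

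Genes carried by leukocytes of all kinds were counted apart, and 15 of the 24 in the table had enough counts. High counts in M1CM or M0CM alone can meet that minimum, as for *Plek* and *Nckap1l*. The calls and medians of the 15 are therefore not those of all 24. Between M1CM and D10, 9 of the 15 rose and 2 fell (44.4% of all genes called), and the 5 of smallest p were *Plek* (pleckstrin), the kinase genes *Fgr* and *Syk*, *Arhgdib* and *Itgal* (an integrin chain), all higher. The count of 11 dropped to 7 when rat 2 or rat 4 was left out, to 5 when rat 3 was and to 6 when rat 8 was. Without rats 2, 3, 4 and 8 in turn, only 12, 11, 13 and 12 of the genes had enough counts. Calls over all genes fell too, from 6015 to 5181, 5079, 4485 and 4679. In Pol1 against D10, *Fgr* and *Itgal* rose and *Lcp1* (plastin) and *Lcp2* (an adaptor) fell, 4 of 15 where 18.6% of all genes were called. This count dropped to 2 without rat 4, where calls over all genes fell from 2528 to 1367. Between M1CM and Pol1, 7 rose and 0 fell (25.1% of all genes called), with *Plek*, *Arhgdib*, *Fgr*, *Syk* and *Lcp1* in front, and 1 (*Spi1*) fell with a term for the rat or with DESeq2.

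In M0CM against D10, 0 of the 15 were called by edgeR at an adjusted p below 0.05 (0.14% of all genes), while 10 had an unadjusted p below 0.05. The share of all genes at that unadjusted threshold was not counted, so the 10 cannot be set against a background. DESeq2 called 3 (*Fgr*, *Itgb2* and *Cd53*), and the edgeR fit with a term for the rat called 4 (*Cd53*, *Itgb2*, *Fgr* and *Nckap1l*). Over all genes these fits also called more, 60 with DESeq2 and 149 with the term for the rat, against 19 without either. The median log2 fold change of the 15 was 1.64, and -0.0 over all genes tested. *Itgb2* (the CD18 integrin chain) had 10, 27, 48 and 13 counts in M1CM, 44, 70, 29 and 36 in M0CM, 2, 7, 0 and 2 in Pol1 and 8, 7, 5 and 0 in D10. Its M0CM and M1CM libraries all lay above those of Pol1 and D10, as those of *Msr1*, *Cyth4* and *Cd68* did. Between M1CM and M0CM, 5 of the 15 rose and 3 fell (40.3% of all genes called), the 5 of smallest p being *Plek*, *Fgr* and *Arhgdib*, which rose, and *Nckap1l* and *Lcp1*, which fell. This count of 8 dropped to 5 when rat 4 or rat 8 was left out, where calls over all genes fell from 5469 to 3871 and 4204.

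*Spi1*, which encodes PU.1, was among the 3 that fell between M1CM and M0CM. It had 25, 6, 12 and 21 counts in M1CM, 54, 58, 38 and 63 in M0CM, 27, 26, 36 and 48 in Pol1 and 32, 28, 48 and 28 in D10. All M1CM libraries were below all others but for rat 2, which lay just above the lowest Pol1 and D10 libraries. The log2 fold change was -1.76 against M0CM (standard error 0.36, edgeR adjusted p = 0.00137) and -0.97 against D10 (standard error 0.36, edgeR adjusted p = 0.0417), lower in 4 of 4 rats in both. For M0CM against D10 it was 0.79 (standard error 0.35, edgeR adjusted p = 0.976), higher in 3 of 4 rats.

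**Figure D4:**
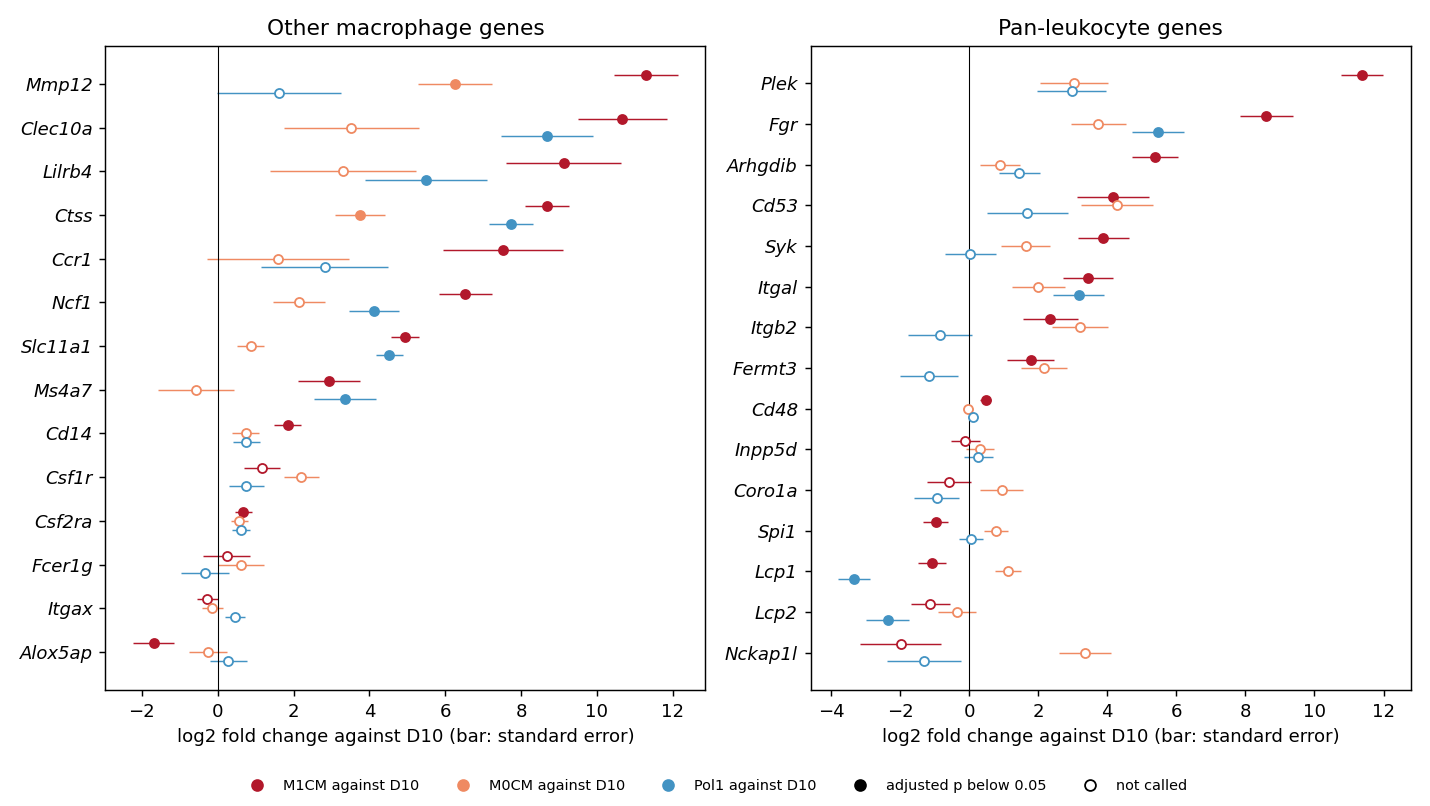
Log2 fold change against D10 (x axis, bars are standard errors) of the 14 further macrophage genes and the 15 pan-leukocyte genes with enough counts (y axis), for M1CM, M0CM and Pol1. Filled points were called by edgeR at an adjusted p below 0.05, and they include *Mmp12* and *Ctss* alone in M0CM, 6 macrophage genes in Pol1 and 10 higher and 1 lower in M1CM.

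Of the genes that work with the 10, some were read in every medium and others almost only in the macrophage media. Of the oxidase that *Cybb* belongs to, *Cyba* (p22phox, which holds the catalytic chain in the membrane) was abundant everywhere, with 179 ± 57.7 CPM in M1CM, 117 ± 4.01 CPM in M0CM, 146 ± 6.02 CPM in Pol1 and 91.4 ± 21.3 CPM in D10. *Ncf1* was at 10.2 ± 5.14 CPM in M1CM, 0.480 ± 0.247 CPM in M0CM, 1.90 ± 1.17 CPM in Pol1 and 0.108 ± 0.0733 CPM in D10. *Ncf4* (p40phox) instead followed the M0CM pattern, with 3, 0, 1 and 0 counts in M1CM, 8, 12, 4 and 7 in M0CM, 1 in all of Pol1 and 0 in D10. *Rac2* (the GTPase of the oxidase) did so too, with 9 counts in M1CM, 35 in M0CM and 0 in Pol1 and D10. *Nox4* (an oxidase catalytic chain of non-phagocytic cells) was lower in M1CM than in D10, with a log2 fold change of -4.36 (standard error 0.77, edgeR adjusted p = 0.000331). Of the receptors served by *Tyrobp*, *Trem2* had 4, 1, 0 and 0 counts in M1CM, 6, 11, 5 and 13 in M0CM, 0, 3, 0 and 2 in Pol1 and 0 in D10.

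Among relatives of the 10, *Mrc2*, the paralogue of *Mrc1* found on fibroblasts, was at 728 ± 104 CPM in M1CM, 715 ± 189 CPM in M0CM, 668 ± 99.9 CPM in Pol1 and 677 ± 247 CPM in D10, with overlapping ranges. Among scavenger receptors beside *Msr1*, *Scara5* (a ferritin receptor) was lower in M1CM than in M0CM (log2 fold change -1.74, standard error 0.55, edgeR adjusted p = 0.0195), and *Stab1* was lower in M1CM than in D10 (log2 fold change -1.74, standard error 0.32, edgeR adjusted p = 0.000506). For both, the M0CM and D10 ranges overlapped. *Msr1* was chosen on counts in these same libraries, so its ranges cannot be set against theirs.

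Markers of other blood cells were scanned for comparison. The neutrophil genes *S100a8* and *S100a9*, the lymphocyte genes *Cd3e*, *Nkg7* and *Cd79b* and the 3 mast cell genes examined had 0 counts in all 16 libraries. Other lymphocyte genes were read: the 6 T and NK cell genes summed to 0.463 to 0.942 CPM in M1CM, 0.317 to 1.08 CPM in M0CM, 0.81 to 1.08 CPM in Pol1 and 0.627 to 0.952 CPM in D10, with overlapping ranges, and came mostly from *Cd2*, *Cd8a* and *Lck*. The 5 B cell genes had 9 counts in M1CM, all from *Pax5*, 0 in M0CM, 1 in Pol1 and 5 in D10. Over 6 neutrophil genes the sum was 3.00 to 9.75 CPM in M1CM, 0.0408 to 0.73 CPM in M0CM, 0.503 to 1.60 CPM in Pol1 and 0.0418 to 0.225 CPM in D10, and over 4 platelet genes 0.491 to 1.80 CPM in M1CM, 0.939 to 1.71 CPM in M0CM, 0.61 to 1.26 CPM in Pol1 and 0.47 to 0.92 CPM in D10. The 8 mesenchymal genes examined, with *Col1a1* and *Thy1* among them, summed to 45200 to 101000 CPM in M1CM, 85000 to 123000 CPM in M0CM, 76600 to 118000 CPM in Pol1 and 93400 to 142000 CPM in D10. The part of these other cell types in the results was not tested.

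Over all 16 libraries, the 10 genes whose log2 CPM was most like the mean standardised profile of the macrophage transcripts were *Itgb2* (Pearson r = 0.854), *C5ar1* (0.853), *Csf1r* (0.82), *Fermt3* (0.808), *Cd53* (0.805), *RGD1304694* (0.795), *Il1r2* (0.778), *Golph3* (0.771), *Usp46* (0.768) and *Egr1* (0.763). These correlations are a description, since libraries share rats and media. The receptor gene *C5ar1* (the receptor of complement fragment C5a) had 2, 0, 4 and 0 counts in M1CM, 18, 18, 26 and 10 in M0CM, 0 in Pol1 and 2 in all of D10. *RGD1304694*, *Golph3*, *Usp46* and *Egr1* were read with 526 to 4197 counts in every library. Among the genes most like *Lyz2* were *C5ar1* (0.868) and *Nckap1l* (0.771), and *Nckap1l* had 0, 0, 1 and 0 counts in M1CM, 13, 21, 13 and 12 in M0CM, 0, 2, 0 and 0 in Pol1 and 1, 0, 4 and 1 in D10. Those most like *Cd68* were *Mmp12* (0.938), *Pik3cb* (0.919) and *Atg13* (0.919), of which *Pik3cb*, a lipid kinase gene, had 266, 552, 553 and 404 counts in M1CM, 133, 132, 118 and 71 in M0CM, 58, 91, 60 and 52 in Pol1 and 100, 128, 124 and 85 in D10. *C5ar1* and *Nckap1l* thus had their highest counts in M0CM, and the 3 genes nearest to *Cd68* in M1CM.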

How the data were processed

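Messenger RNA was sequenced from MSCs of 4 rats in 4 media (16 libraries). Reads were mapped to Rnor 6.0 by TopHat2 2.0.12 (Bowtie2 2.2.3) and counted by HTSeq 0.6.1, per the submitters' processing notes and the study's methods. For the authors' test the notes name DESeq 1.18.0, and the methods another version of DESeq. Strand handling was not given in the sources used here. The read counts deposited by the authors came from HTSeq and are not normalized. The FPKM values and gene lengths (bases) deposited by the authors were used only to compare lengths: FPKM implied another length, by over 2%, for 1582 of 18911 genes, *Lyz2* and *Ptprc* among them. The authors' p-values, adjusted p-values and calls were not used.

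TMM factors from edgeR 4.0.16 (R 4.3.3) scaled the library totals, and CPM used these scaled totals. The 13556 genes that reached 10 counts in 4 or more libraries entered a two-sided quasi-likelihood test of edgeR, in which the 16 libraries shared 1 fit by medium and p-values were adjusted by Benjamini-Hochberg over all these genes. The fit was tested on simulated counts drawn independently for each library. They held no effect of the rat, so that test does not cover the likeness between libraries of the same rat. Pooled ratios carry exact 95% counting intervals, with a floor of 3 counts over a group. Alternatives were median-of-ratios factors, library totals, DESeq2 1.42.0, no filter, a minimum log2 fold of 1, a term for the rat, and leaving out each rat.

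Labels give the rat of each library. Libraries of the same rat deviated from their medium's mean alike (r = 0.33 to 0.728 over 24 pairs) and those of other rats less so (-0.519 to 0.225 over 72 pairs).

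Of 42 further macrophage names 36 were found, of 24 pan-leukocyte names 24, and of 25 partners and relatives 22. *Itgam* was not matched. Some genes, such as *Ncf1*, *Rac2* and *Syk*, stand in more than 1 list. The 10 genes and all lists were chosen with earlier results of these data known. All called list genes are named where 5 or fewer, otherwise the 5 of smallest p, beside a fixed set (*Csf1r*, *C1qa*, *Cd14*, *Spi1*, *Fcer1g*, *Itgb2*), partners and nearest profiles, of which 1 result is not reported here. Genes named outside this rule were chosen after their values were seen.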

Additional observations from a re-analysis of the deposited data

Results flagged for a closer look

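Within each medium, the highest or lowest of the 4 libraries was compared with the others for genes with at least 10 counts in that medium. Only the 10 transcripts, *Csf1r*, *Cd14*, *Spi1*, *Fcer1g*, *Itgb2* and some called list genes were scanned. Those list genes were the called ones of smallest p, at most 5 per list and comparison. A library stood apart in 8 of 97 such groups, where chance sets apart about 1 in 20. Among the 10 macrophage transcripts, *Laptm5* in M1CM was at 1.12 CPM in rat 2, with the other rats at 0.0756 to 0.179 CPM, and *Msr1* in M0CM was at 1.35 CPM in rat 3, with the others at 0.669 to 0.734 CPM. Rat 3 stood apart for 5 further groups. *Ctss* was at 25.3 CPM in its M1CM library (others 12.6 to 14.2) and at 12.8 CPM in its Pol1 library (others 6.82 to 7.17). *Ccr1* was at 30.3 CPM in its M1CM library (others 0.75 to 3.59) and at 1.18 CPM in its Pol1 library (others 0 to 0.162), and *Lilrb4* at 1.90 CPM in its Pol1 library (others 0.102 to 0.249). *Ncf1* in M0CM was at 0.845 CPM in rat 4, with the others at 0.319 to 0.408 CPM.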

How the results depend on the processing

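Of 84 alternative log2 fold changes of the macrophage transcripts against D10, 84 kept their direction and 79 lay within the spread between replicates. The other 5 were *Cyth4* values without rat 3 (4.17 in M1CM, 5.36 in M0CM) or rat 8 (4.08 in M0CM) and *Msr1* values without rat 8 (6.13 in M1CM, 7.61 in M0CM), which held the only D10 count. A transcript that fell below the count minimum without a rat gave no value there. Of 90 counts of called list genes under alternatives, 73 lay within 1.5 times the reported count.

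Under the replicate block, in which each rat has its own term, the count of pan-leukocyte genes called in M0CM against D10 was 4, and DESeq2 gave 3, in place of 0. The block moved no other list count by over 1.5 times. Leaving out 1 rat gave, for the further macrophage genes, 0 to 0 calls in M0CM against D10 in place of 2, and 2 to 4 in M1CM against Pol1 in place of 7. For the pan-leukocyte genes it gave 5 to 7 in M1CM against D10 in place of 11, 2 to 4 in Pol1 against D10 in place of 4, and 5 to 6 in M1CM against M0CM in place of 8. These fits hold fewer libraries, and they also called fewer of all genes. Some of them tested fewer of the listed genes. Depth limits most of the 10 transcripts, which had 0 to 10 counts in most libraries of Pol1 and D10.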
